A study of Arabidopsis thaliana with 42 samples.

Results

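A group of 99 Arabidopsis thaliana genes gave RNA in every wild-type seedling library and next to none in seedlings of the double mutant mtn1-1mtn2-5 grown on spermidine. They were chosen from the seedling count table as the genes with at least 50 counts in each of the 6 wild-type (WT) libraries and at most 10 in each of the 3 mtn1-1mtn2-5 spermidine libraries. They are 99 of the 37336 genes in that table, and of the 20801 genes that met the WT side of the rule. Those 9 libraries chose the genes, so their levels there are a description and carry no test. The counts of the table rise in steps of about 3.32 units, taken here as 1 sequenced fragment, so that 10 counts are about 3 fragments. The same rule turned around, with at most 10 counts in each WT library and at least 50 in each mtn1-1mtn2-5 spermidine library, found 50 genes, called the reverse set below.

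The plants were seedlings aged 14 days and unopened flower buds of plants described in the growth protocol as Col-0, the reference strain of the species. The seedlings were wild type, mtn1-1mtn2-1 or mtn1-1mtn2-5, each on mock medium (MS plates) or on the same medium with 100 µM spermidine, with 3 libraries a group. The buds were labelled WT, mtn1-1mtn2-1 or G3, the last with the genotype mtn1-1mtn2-1 (G3), from plants given the same 2 treatments, with 4 libraries a group. Both mutants carry mtn1-1 and differ in the allele of MTN2. MTN1 (AT4G38800) and MTN2 (AT4G34840) encode methylthioadenosine nucleosidase, which returns the methylthioadenosine left by polyamine and ethylene synthesis to the methionine cycle. Each library came from pooled tissue, and the labels do not say from which plants or lines, through how many crosses, or in which strain each insertion was first made. Nothing in them shows that replicates were separate cultures, so p-values measure the spread between these samples, which may be technical.

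MTN1 and MTN2 were checked first. MTN1 had a level of 103 ± 2.62 CPM (counts scaled to the library size) in mock WT seedlings and 5.19 ± 0.827 in mock mtn1-1mtn2-1 seedlings (SD, n = 3). In mtn1-1mtn2-5 it was at 4.46, 20.7 and 4.89 CPM in libraries 1, 2 and 3. MTN2 stood at 7.03 ± 0.177 CPM in WT, 0.118 ± 0.00950 in mtn1-1mtn2-1 and 8.67 ± 0.627 in mtn1-1mtn2-5, where it was slightly higher than in WT (log2 fold change 0.30, adjusted p 0.0478 in edgeR's quasi-likelihood test), so MTN2 RNA was not lost in the mutant in which the 99 genes were silent. In buds, the libraries labelled G3 held 88.8 ± 3.04 CPM of MTN1 and those labelled WT 5.25 ± 0.510 (n = 4), against their labels, and each bud library is therefore called by its label. Library totals were 134 to 161 M counts in seedlings, about 40.4 to 48.5 M fragments, and 75.3 to 92.6 M counts in buds, about 18.9 to 23.3 M fragments. Flower markers (AP1, AP3) were at or under 0.261 CPM in every seedling library and at 101 CPM or more in every bud library. In bulk tissue, fewer cells of a type and less RNA per cell cannot be told apart.

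Silence of this kind is known from several settings in Arabidopsis. Strains of the species differ by deletions, insertions and rearranged gene clusters, most of all among disease resistance genes, transposons and the regions beside the centromeres, and RNA of a gene that a strain lacks gives no reads on the Col-0 genome. Transposons and many pseudogenes are also kept silent by DNA methylation, which draws its methyl groups from S-adenosylmethionine, a product of the same methionine cycle. A gene can thus be silent in a line and active in another without a change of its sequence.

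To show where these genes start, the 250 bases upstream are printed for the gene with the highest WT level (in CPM) in each of the 5 chromosome stretches described further on. They are given 5′ to 3′ on the strand of the gene from RefSeq's TAIR10.1 build, with TATAAA, the core of the TATA box, in capitals.
AT1G20390: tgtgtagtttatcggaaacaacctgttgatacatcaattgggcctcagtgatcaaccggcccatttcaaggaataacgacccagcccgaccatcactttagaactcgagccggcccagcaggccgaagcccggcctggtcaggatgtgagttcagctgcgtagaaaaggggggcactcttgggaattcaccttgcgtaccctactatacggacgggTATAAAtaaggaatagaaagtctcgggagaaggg
AT1G55990: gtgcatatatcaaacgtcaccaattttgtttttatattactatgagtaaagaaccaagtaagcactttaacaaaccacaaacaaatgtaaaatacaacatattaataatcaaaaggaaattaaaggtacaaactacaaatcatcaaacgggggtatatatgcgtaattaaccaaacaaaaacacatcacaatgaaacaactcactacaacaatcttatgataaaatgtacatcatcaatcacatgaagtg
AT2G06950: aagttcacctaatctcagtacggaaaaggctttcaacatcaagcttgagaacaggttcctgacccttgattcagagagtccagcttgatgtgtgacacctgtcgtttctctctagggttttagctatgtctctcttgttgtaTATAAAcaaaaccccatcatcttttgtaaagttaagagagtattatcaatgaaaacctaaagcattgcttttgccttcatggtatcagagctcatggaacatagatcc
AT3G47680: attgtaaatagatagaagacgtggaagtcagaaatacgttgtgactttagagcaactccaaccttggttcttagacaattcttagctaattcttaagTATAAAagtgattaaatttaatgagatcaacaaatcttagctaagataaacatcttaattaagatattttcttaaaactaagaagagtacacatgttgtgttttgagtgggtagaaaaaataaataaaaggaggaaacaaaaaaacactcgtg
AT4G04692: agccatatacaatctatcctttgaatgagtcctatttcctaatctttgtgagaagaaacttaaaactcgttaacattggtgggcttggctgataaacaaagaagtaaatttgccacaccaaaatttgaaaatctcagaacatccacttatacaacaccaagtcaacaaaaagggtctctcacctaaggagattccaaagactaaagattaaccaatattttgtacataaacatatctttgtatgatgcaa
AT1G20390 lies on the plus strand with its window at chr1:7065244-7065493, and AT1G55990 on the minus strand at chr1:20942952-20943201. AT2G06950 (chr2:2863435-2863684), AT3G47680 (chr3:17579578-17579827) and AT4G04692 (chr4:2376463-2376712) are on the minus strand too. The motif was searched on the strand of the gene alone. It stood in 3 of these 5 windows, in 31 of the 99 (31.3%) and in 11484 of 37897 windows of all annotated genes (30.3%), so its share among the silent genes was near that of the genome.

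Another window bears on how single genes can be read. AT4G09200 and AT4G09310, annotated with a SPRY domain, are 2 genes of 2637 bases each, identical over their whole length, and their 250 upstream bases had 0 differences.
AT4G09200: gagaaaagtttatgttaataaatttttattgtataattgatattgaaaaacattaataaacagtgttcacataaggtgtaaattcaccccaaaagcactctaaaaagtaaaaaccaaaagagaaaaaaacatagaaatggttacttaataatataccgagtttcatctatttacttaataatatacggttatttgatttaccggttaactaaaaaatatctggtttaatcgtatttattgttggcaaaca
This window is at chr4:5858994-5859243 for AT4G09200 and at chr4:5902563-5902812 for AT4G09310, both on the plus strand. Reads from either copy cannot be told apart. The levels of the pair, 9.91 and 9.97 CPM over the 6 WT libraries, therefore cannot be assigned to either gene. In all, 20 of the 99 had another copy of at least 95% identity over at least 50% of the gene, among them 5 genes on chromosome 1, the F-box-associated protein gene AT1G25141 and 4 transcribed pseudogenes related to a deacetylase and F-box family (AT1G24792, AT1G24879, AT1G25053 and AT1G25209), and the pair AT1G58889 and AT1G59265 (99.98% identical). The other 79 had none. How the authors' counting treated shared reads is not given in the sources used here, so values of single genes among these 20 are uncertain.

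In WT seedlings these were genes of low to middle level. Compared per length, in the deposited TPM (a level per length and library size) averaged over the 6 WT libraries, their median was 3.07, with quartiles of 1.08 and 9.57, against 14.6 for all genes expressed in WT, and 14 of the 99 lay above that median. The highest was AT4G04692, a transcribed pseudogene of unknown role on chromosome 4, at 73.8 TPM. In CPM, the scale used from here on for a gene across samples, it stood at 44.4, 40.4 and 42.9 in the WT mock libraries and at 44.4, 51.8 and 42.4 on spermidine. In the mtn1-1mtn2-5 spermidine libraries it was at 0.0286, 0.0726 and 0.0368 CPM. AT2G15292, an RNA gene of unknown role on chromosome 2, stood between 27.6 and 32.4 CPM in the 6 WT libraries and at 0 in all 3 mutant ones, at least 468-fold lower against a floor of 3 fragments per library, which covers counting error only. The groups lie wide apart by construction.

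Of the 99, 51 had 0 counts in all 3 mtn1-1mtn2-5 spermidine libraries, with bounds from at least 7.91-fold to at least 468-fold (median 42.6). The remaining 48 had a few. Near the limits of the rule, AT3G29767 just entered, with a lowest WT count of 50 and a highest mutant count of 10, and AT4G01335 stayed out with a lowest WT count of 48 at a mutant count of 0. AT4G12917 stayed out with a lowest WT count of 765 because 1 mutant library held 11 counts. In the fit of all genes between these 2 groups all 99 were called lower, where 6.06% of the 25201 genes tested were (6.92% higher, 13% in either direction). Since the rule used this contrast, nothing is read from it.

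The kinds of gene among them were uneven. By the TAIR10.1 annotation, 43 of the 99 were pseudogenes, 44 coded for protein and 12 were RNA genes that code for none. Pseudogenes made up 43.4% of the group and 1.21% of the genes expressed in WT with an annotation, and the 43 were 17.3% of the 249 expressed pseudogenes. By contrast 0.221% of 19907 expressed protein-coding genes were in the group. A single exon was annotated for 47 of the 99 (47.5%) and for 15.1% of expressed genes. Of the protein-coding ones, 7 encode resistance proteins, leucine-rich repeat proteins or receptor-like kinases, classes known for pathogen sensing. These are AT1G58410, AT2G15042, AT3G43740, AT3G45860 (CRK4, a cysteine-rich receptor-like kinase), AT3G46370, AT3G46400 and AT4G09420. A further 4 are ankyrin repeat genes (AT4G03480, AT4G03490, AT4G03500, AT4G05040) and 3 have a C1 domain (AT4G01910, AT4G01920, AT4G01930). The share of these protein classes among all expressed genes was not counted, so no excess is read from these numbers.

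A few carry a known role or name. AT1G29590 (eIF4E3) encodes a translation initiation factor of the family that binds the cap of messenger RNA. It stood at 2.31, 2.56 and 2.91 CPM in mock WT and at 2.97, 3.12 and 2.88 in mtn1-1mtn2-1, and at 0, 0.528 and 0 in the mock libraries of mtn1-1mtn2-5. CRK4 stood at 10.7, 14.1 and 13.1 CPM in mock WT, at 5.86, 9.97 and 9.20 in mtn1-1mtn2-1, and at 0, 2.23 and 0 in mtn1-1mtn2-5. AT3G42658 (SADHU3-2) belongs to a family of retrotransposons that code for no protein, and the reference annotation records that some natural strains hold a methylated, silent allele of it. For eIF4E3 and CRK4, libraries 1 and 3 of mock mtn1-1mtn2-5 were at 0 and library 2 was not.

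**Figure D1:**
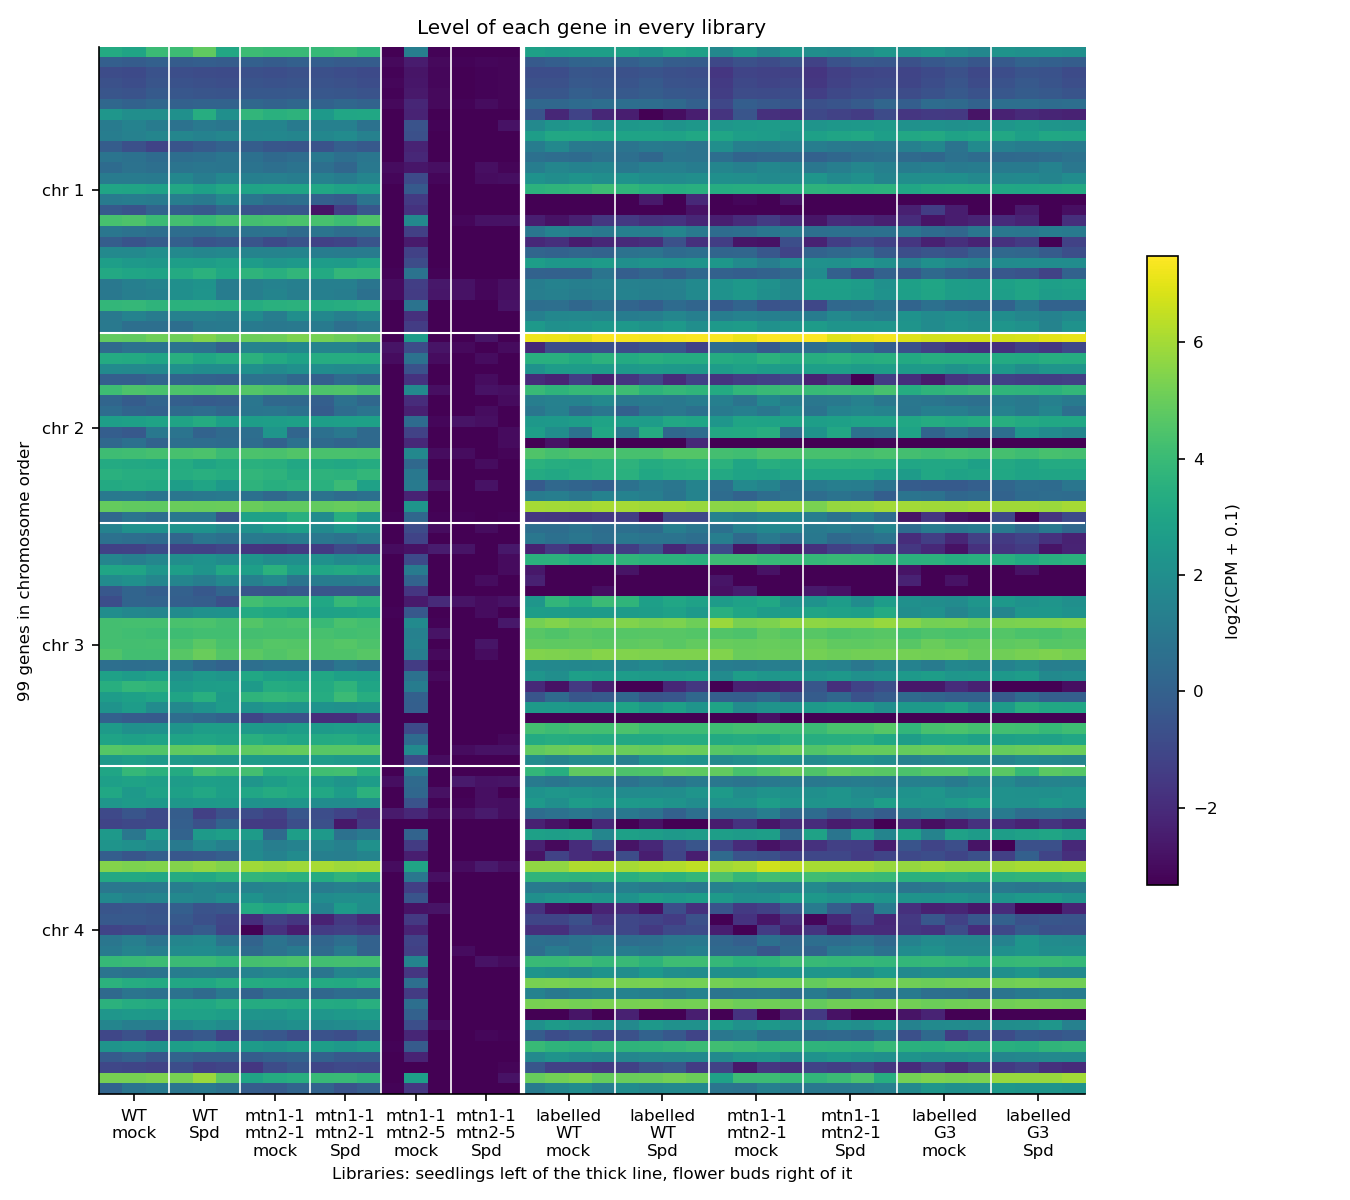
Level of each of the 99 genes (rows, in chromosome order) in all 42 libraries (columns, by group), as log2(CPM + 0.1). In this colour scale dark is low. The dark block holds the 6 mtn1-1mtn2-5 seedling libraries, in which library 2 on mock medium is the lighter column, and most rows are light in all 24 bud libraries while a few are dark there as well.

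The mock libraries of mtn1-1mtn2-5 were not used to choose the genes. In library 1, 98 of the 99 were at 10 counts or fewer (79 at 0), and in library 3, 97 were (66 at 0). The exceptions were AT4G01930 in library 1, and SADHU3-2 and AT3G29767 in library 3. Library 2 differed: 9 genes were at 10 counts or fewer and 57 reached 50. Each gene was set against its mean in WT on mock medium. In library 2 the median over the 99 was 16.5%, with quartiles of 11.6% and 19.9% and a range of 0 to 80.4%, and it was 0 in libraries 1 and 3. Summed over the 99, the level was 16.6% of WT in library 2, 0.0682% in library 1 and 0.167% in library 3.

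MTN1 and the reverse set, which lie outside the 99, differed in library 2 as well. Its MTN1 level, less the mean of libraries 1 and 3, was 16.2% of the gap between WT and those 2 libraries. The reverse set had a median of 88.4% of its spermidine level in library 2, against 102% in library 1 and 101.5% in library 3. Among the 99, 10 were at least 2-fold apart between WT and mtn1-1mtn2-1 on mock medium (7 higher in the mutant, 3 lower). In library 2 these 10 stood at a median of 19.0% of WT (2.61 to 80.4%) and 10.7% of mtn1-1mtn2-1. Library 2 thus held more than 10 counts of 90 of the 99 genes, and more MTN1 RNA than libraries 1 and 3. Whether other plants or RNA entered that library was not tested, and results that rest on it are given with and without it.

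**Figure D2:**
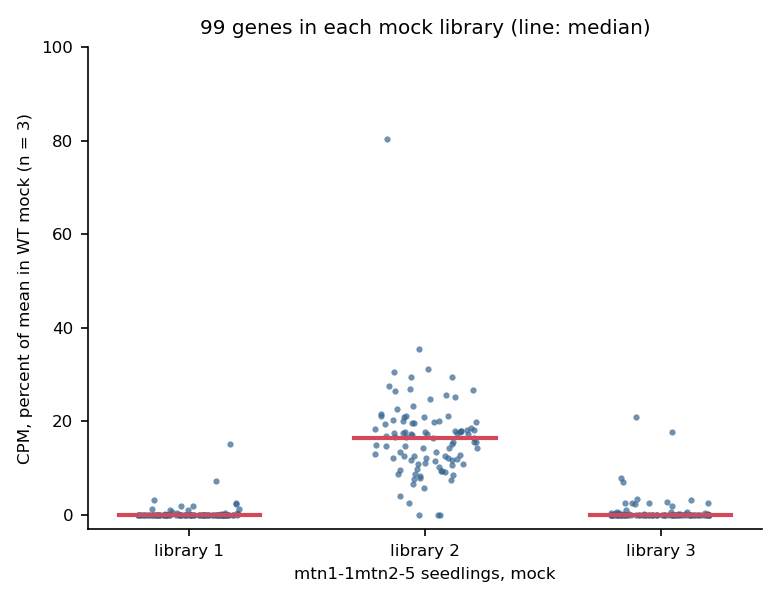
Level of each of the 99 genes (points) in the 3 mock libraries of mtn1-1mtn2-5, in percent of the mean of the WT mock libraries (n = 3), with the median as a line. Libraries 1 and 3 lie at 0 with few exceptions, and library 2 has a median of 16.5%.

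Neither mock mutant group entered the rule, but the genes were chosen as near silent in mtn1-1mtn2-5 on spermidine. The direction of a difference between the mock mutants was therefore not free of the rule. The fit held all 6 seedling groups, so the libraries of the rule entered its estimate of the spread. Both mutants carry mtn1-1, with different alleles of MTN2. Their lines and crosses are not given, so allele and line background cannot be told apart in this comparison. Of the 99 genes, 96 were called lower in mtn1-1mtn2-5 than in mtn1-1mtn2-1 (edgeR quasi-likelihood test, adjusted p under 0.05), where 14.6% of the 25201 genes tested were, and 0 higher, where 13.1% were (27.7% in either direction). The median log2 fold change was -4.35 (-4.33 with the 3 genes at 0 set to their bound), and -0.01 over all genes tested. The 3 not called were AT4G08109, AT4G08112 and AT4G16870. Without library 2 of mtn1-1mtn2-5, all 99 were called lower. The fitted median log2 fold change was then -10.73, from mutant libraries at or near 0 counts for most of the genes. With only the 2 groups in the fit, or with the DESeq2 Wald test, which gave 33 of the genes no adjusted p, 59 were called.

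AT3G46400, a leucine-rich repeat receptor kinase gene, had the largest fall in the fitted log2 fold change. It was at 0.380, 0.543 and 0.547 CPM in mtn1-1mtn2-1 and at 0 in all 3 libraries of mtn1-1mtn2-5, at least 7.27-fold lower (adjusted p 2.33e-06 in edgeR). AT4G13577, which codes for a protein of unknown role, came next, at 0.239, 0.468 and 0.639 against 0 in all 3 (at least 6.66-fold, adjusted p 1.11e-05). These 2 genes, with AT4G03480, were the 3 that had 0 counts in library 2 as well. A gene of a higher level shows the common pattern. AT3G47680, which encodes a DNA binding protein, was at 27.6, 29.0 and 29.8 CPM in mtn1-1mtn2-1 and at 0, 3.46 and 0 in mtn1-1mtn2-5 (log2 fold change -4.64, SE 1.02, adjusted p 0.00360). Against WT on mock medium, 92 of the 99 were called lower in mtn1-1mtn2-5, where 4.33% of genes tested were, and 99 without library 2. Called higher were 0, where 3.37% were. The WT libraries in that comparison also served in the rule.

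In mtn1-1mtn2-1 seedlings nearly all the 99 genes were expressed. In these 6 libraries, 91 of the 99 reached 50 counts in each, and 0 were at 10 or fewer in all. The 8 with a library under 50 were AT1G53970, AT3G29767, AT3G46400, AT4G01930, AT4G03480, AT4G08109, AT4G08112 and AT4G13577. On mock medium 4 of the 99 were called against WT, all higher in the mutant, where 15.7% of the 25201 genes tested were called (7.61% higher, 8.12% lower), and 89 were within 2-fold. The median log2 fold change was 0.14, against 0.01 over all genes. On spermidine 4 were called, 3 higher and 1 lower, where 18.2% of all genes were (10.9% higher, 7.32% lower), and 85 were within 2-fold (median 0.01, and 0.01 over all genes). The WT libraries of both comparisons also served in the rule, so these calls are a description. Between spermidine and mock medium in mtn1-1mtn2-1 edgeR called 0 of the 99 and 0% of all genes tested. An unadjusted p under 0.05 was found for 2 of the 99 and for 1741 of all genes, and DESeq2 called 1 of the 99.

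The 6 seedling groups share an estimate of the spread. The counts against WT changed with the mock library of mtn1-1mtn2-5 described above. Without it, 15 of the 99 were called against WT on mock medium, 13 higher and 2 lower (of all genes 14.6%, with 7.17% higher and 7.42% lower), and 17 on spermidine, 8 higher and 9 lower (of all genes 17.1%, with 10.3% higher and 6.75% lower). Fitted on the libraries of the 2 groups alone, the counts were 20 (18 higher, 2 lower) and 13 (6 higher, 7 lower). The cause of these changes was not tested.

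SADHU3-2 differed most. It stood at 0.491, 1.00 and 0.975 CPM in mock WT and at 18.4, 15.9 and 15.9 in mtn1-1mtn2-1, with no overlap (log2 fold change 4.35, SE 0.43, adjusted p 3.20e-05). On spermidine it was at 0.855, 0.796 and 0.518 in WT and at 8.52, 15.1 and 11.9 in the mutant (log2 fold change 4.03, adjusted p 2.41e-05). The mock mtn1-1mtn2-5 libraries held 0, 0.0726 and 0.147 CPM. SADHU3-2 was chosen as near silent in mtn1-1mtn2-5 on spermidine, so its place below WT in that mutant was not free of the rule.

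Other pseudogenes rose as well. AT4G07850 stood at 0.621, 0.654 and 0.596 CPM in mock WT and at 9.60, 8.07 and 9.82 in mtn1-1mtn2-1 (log2 fold change 3.88, SE 0.37, adjusted p 4.85e-05). AT4G04293 and AT1G25430 were the other genes called there, with log2 fold changes of 2.06 (adjusted p 0.0126) and 1.55 (adjusted p 0.0405). All 4 genes called on mock medium were pseudogenes, and 9 of the 10 that differed at least 2-fold were, where 43 of the 99 were. Of the 44 protein-coding genes, 0 differed 2-fold. How often pseudogenes outside the 99 were called or differed 2-fold in this comparison was not counted, so nothing particular to the 99 is read from it. In library 2 of mtn1-1mtn2-5, SADHU3-2, AT4G07850, AT4G04293 and AT1G25430 stood at 8.82%, 7.41%, 11.1% and 2.61% of WT.

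On mock medium 3 of the 99, the pseudogenes AT4G08109, AT4G08112 and AT4G16870, were at least 2-fold lower in mtn1-1mtn2-1, and 0 of the 3 were called with all libraries. AT3G46400 was called lower on spermidine, at 1.33, 1.14 and 0.955 CPM in WT and at 0.162, 0.167 and 0.305 in mtn1-1mtn2-1 (log2 fold change -2.43, SE 0.32, adjusted p 0.000490). The groups do not overlap, and the level stayed above 0. AT4G16870, a pseudogene, was at 37.6, 38.0 and 41.9 CPM in mock WT and at 7.84, 9.73 and 10.8 in mtn1-1mtn2-1, with no overlap. It was not called with all libraries (log2 fold change -2.05, SE 1.05, adjusted p 0.203) and was called without library 2 of mtn1-1mtn2-5 (adjusted p 0.000672). It lies near RPP4 and SNC1, which belong to a cluster of resistance genes on chromosome 4.

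**Figure D3:**
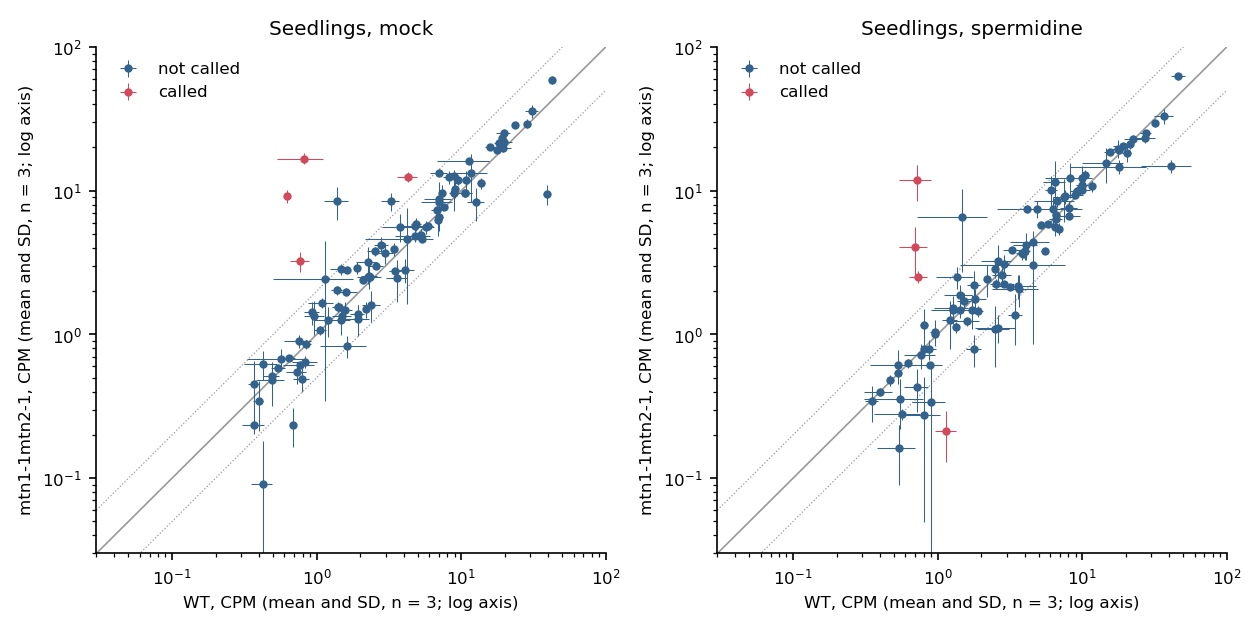
Level of the 99 genes in WT (x axis) and mtn1-1mtn2-1 (y axis) seedlings on mock medium (left) and spermidine (right), in CPM on log axes, with mean and SD of 3 libraries; dotted lines mark 2-fold. Most points lie near the diagonal, and the red points are the 4 genes called in each medium.

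The 99 genes were spread over 4 of the 5 chromosomes. By position in TAIR10.1, chromosome 1 held 27 (0.492% of its 5491 genes expressed in WT), chromosome 2 held 18 (0.572% of 3148), chromosome 3 held 23 (0.568% of 4053) and chromosome 4 held 31 (0.980% of 3162). Chromosome 5 held 0 of 4801. The reverse set had 9, 15, 6, 15 and 5 genes on chromosomes 1 to 5. The locus numbers mostly follow the gene order. AT1G58561 and AT4G08115 are out of order by a few genes, and AT1G08213, whose number points to the top of chromosome 1, lies at chr1:21616454-21616960.

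Within the chromosomes the genes were gathered. Joined where neighbours start at most 3 Mb apart, 98 of the 99 fell into 5 stretches, and AT1G80970 at the lower end of chromosome 1 stood alone. The first stretch ran from AT1G20390 to AT1G31355 (chr1:7065494-11230053, 12 genes) and the next from AT1G52618 to AT1G67365 (chr1:19603147-25239330, 14 genes). On chromosome 2 it ran from AT2G06950 to AT2G15810 (chr2:2859226-6886775, 18 genes). On chromosome 3 it ran from AT3G28945 to AT3G47965 (chr3:10970273-17708918, 23 genes), and on chromosome 4 from AT4G01593 to AT4G16910 (chr4:690643-9511760, 31 genes). MTN2 and MTN1 lie on the same arm of chromosome 4, 7.09 and 8.60 Mb beyond the last of these genes. With a limit of 2 Mb there were 6 stretches, with 1 Mb 10, and with 5 Mb 5. Inside the 5 stretches of the 3 Mb limit, the reverse set had 3, 5, 8, 5 and 10 genes in chromosome order. The rest of that set lay outside them, among it the 5 genes on chromosome 5.

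Inside a stretch most genes were not silent. The silent ones were 1.51% and 1.38% of the genes expressed in WT in the stretches of chromosome 1, 10.4% in that of chromosome 2, 5.76% on chromosome 3 and 3.06% on chromosome 4. Direct neighbours were few, with 14 of the 99 in 6 runs of 2 or 3. The longest runs were AT4G01910, AT4G01915 and AT4G01920, which include 2 C1 domain genes, and AT4G08115, AT4G08100 and AT4G08110, which are pseudogenes. AT1G53950 and AT1G53970, AT3G47675 and AT3G47680, AT4G03480 and AT4G03490, and AT4G09300 and AT4G09310 were the other runs. In AT3G47675 and AT3G47680 the annotations overlap on a strand, so their reads may be shared.

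In all, 19 of the 99 overlapped another gene, 16 of them on the opposite strand, and whether counting used strand is not given in the sources used here. Most of the partners had little or no RNA in WT. The partner with the highest level was RPP7 (AT1G58602), on the same strand as AT1G58561, at 269.5 CPM in WT on spermidine and 91.9 in mtn1-1mtn2-5, where AT1G58561 was at 9.96 in WT. Next was AT2G11240, antisense to AT2G11225, at 192 CPM in WT on spermidine and 0.180 in mtn1-1mtn2-5. The meiosis gene ASY1, antisense to AT1G67365, went the other way, with 1.22 CPM in WT and 2.04 in the mutant.

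The genes around the silent ones were then compared, leaving out the 99 and the reverse set. Between mock mtn1-1mtn2-5 and mock WT, 9.57% of the 4377 genes tested inside the 5 stretches were called at 2-fold or more, 233 lower and 186 higher, and 1.23% of 20465 outside, with 1.18% on chromosome 5. Without library 2 the shares were 9.05%, 0.920% and 0.641%. By stretch in chromosome order they were 5.33%, 9.11%, 12.3%, 13.8% and 10.4% with all libraries. Without library 2 they were 5.585%, 8.327%, 10.48%, 12.64% and 10.12%. Between mock mtn1-1mtn2-1 and mock WT the shares were 6.74% inside (82 lower, 213 higher) and 3.32% outside (304 lower, 375 higher). By stretch they were 2.45%, 3.79%, 17.0%, 14.7% and 6.28%. The stretch of chromosome 2 had 7 lower and 51 higher there, and that of chromosome 3 had 9 lower and 79 higher. In mtn1-1mtn2-5 all 5 stretches were above the share outside. In mtn1-1mtn2-1 the first stretch of chromosome 1 was below it and the next close to it, and those on chromosomes 2, 3 and 4 were above it. The stretches were drawn from genes chosen in mtn1-1mtn2-5, these shares carry no test, and neighbouring genes are not independent.

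The same was seen in windows of 100 tested genes. The 36 windows with a silent gene had a median share of 9.28% called at 2-fold between mock mtn1-1mtn2-5 (library 2 left out) and mock WT, and 16 of them were above 10%. The 214 windows without one had a median of 0, and 4 were above 10%. On chromosome 5 the highest of 57 windows was 7.0%. Against mock mtn1-1mtn2-1 in place of WT, a window at AT5G30360 to AT5G35680 on that chromosome reached 22.0%, and the same window was at 25% between mtn1-1mtn2-1 and WT.

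**Figure D4:**
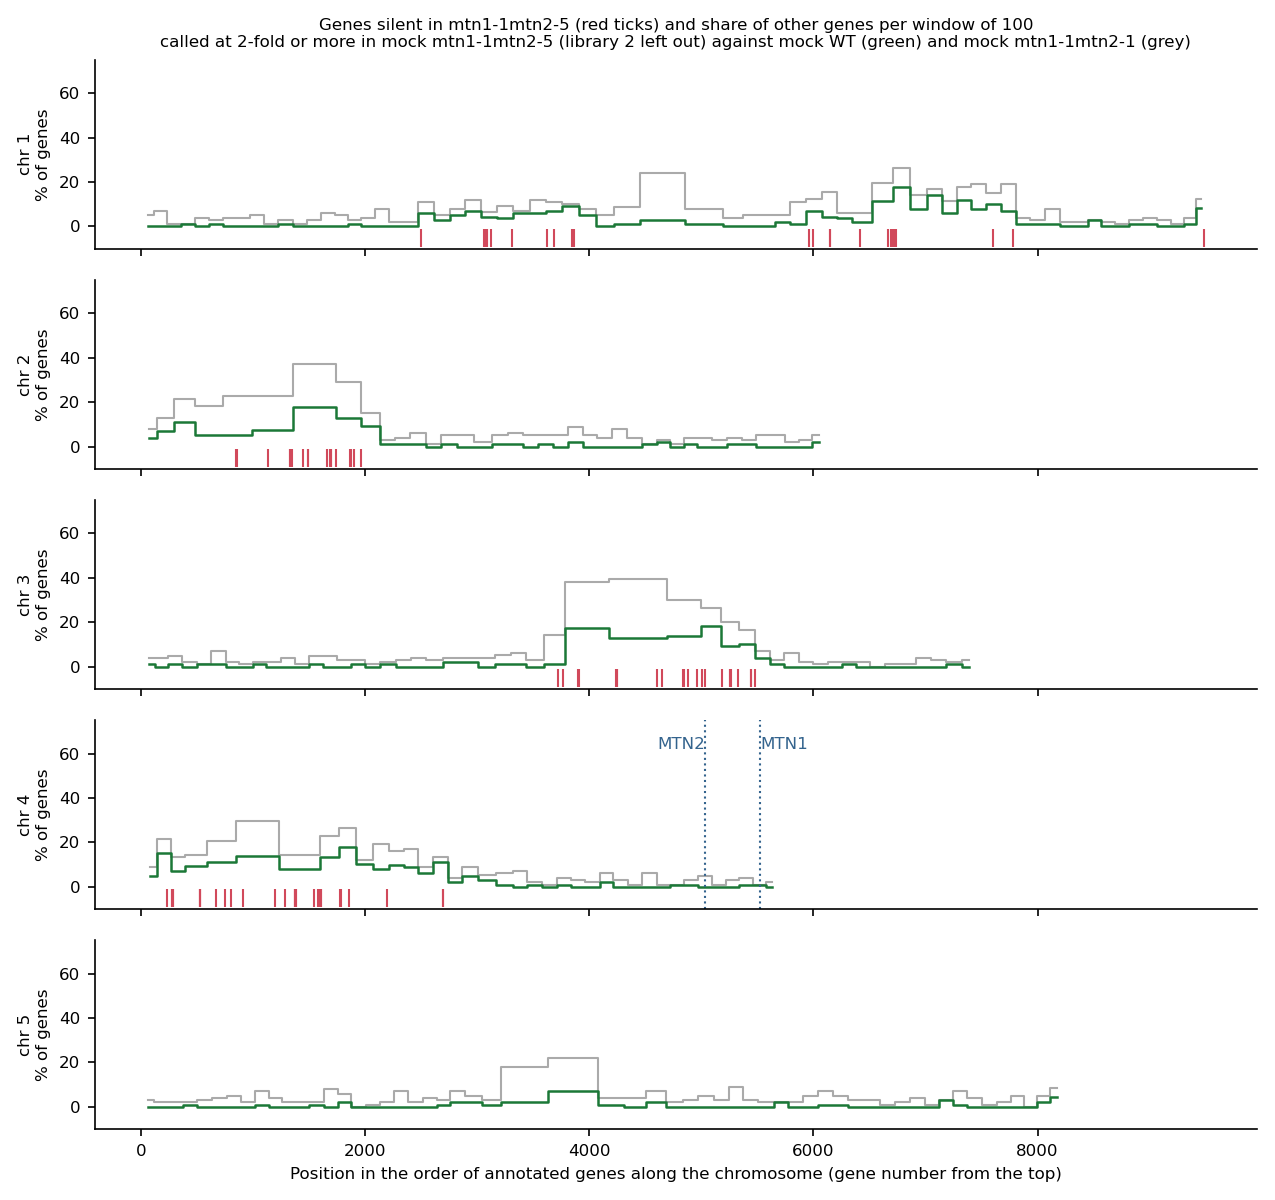
Gene order along each chromosome (x axis, gene number from the top) with the silent genes as red ticks, and the percent of the other genes in windows of 100 that were called at 2-fold or more in mock mtn1-1mtn2-5 without library 2 against mock WT (green) and mock mtn1-1mtn2-1 (grey). The green line is raised over the red ticks on chromosomes 1 to 4 and stays at or under 7.0% on chromosome 5, which has no tick; dotted lines mark MTN2 and MTN1.

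A list of 31 loci known to differ in sequence or level between strains of Arabidopsis was set beside these genes, none of them in the group. Of the 30 tested, 10 were called between mock mtn1-1mtn2-5 and mock WT (3 higher, 7 lower, median log2 fold change -0.09, and 0 over all genes; 7.69% of all genes were called). Of the 11 that lie inside the stretches 8 were called, and of the 19 outside 2. Leaving out the 99 and the reverse set, 20.3% of all genes tested inside the stretches were called in that comparison, and 4.36% outside. In mtn1-1mtn2-1 against WT, 0 of the 11 inside and 5 of the 19 outside were called (3 higher, 2 lower, median 0.08), where 15.7% of all genes were. With the same genes left out, the shares there were 17.1% inside and 15.6% outside. Between the 2 mutants 16 were called, 5 higher and 11 lower in mtn1-1mtn2-5, 9 inside and 7 outside (median -0.17). Of all genes 27.7% were called in that comparison, and, leaving out the 99 and the reverse set, 39.5% inside the stretches and 24.7% outside.

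Those inside that were called against WT are genes of glucosinolate side chains and hydrolysis and of resistance. ESP, the epithiospecifier gene of glucosinolate breakdown on chromosome 1, was higher in mtn1-1mtn2-5 by 6.88 on the log2 scale (SE 0.25, adjusted p 3.52e-10), from 14.5 to 1712 CPM. AOP3, of glucosinolate side chains, had a mean of 0.0242 CPM in WT, under the floor, and 125 in mtn1-1mtn2-5, while its neighbour AOP2 was lower (log2 fold change -3.87, adjusted p 0.00138). RPP7, RPP13, RPP4 and SNC1, resistance genes, were lower by 1.44, 0.95, 1.71 and 1.97, as was ACD6, a regulator of cell death (-2.30, SE 0.25). In mtn1-1mtn2-1 against WT edgeR called 0 of these 8. Apart from AOP3, at 0 there, their log2 fold changes lay between -0.30 (ACD6, adjusted p 0.435) and 0.91 (AOP2, adjusted p 0.306). The 2 called outside were the flowering genes FRI, at the top of chromosome 4 and lower by 2.18, and FLC on chromosome 5, at 1.77 CPM in WT, 14.2 in mtn1-1mtn2-5 and 9.96 in mtn1-1mtn2-1. No genotype data or genome of another strain was used, so whether the stretches come from a strain other than Col-0 was not tested.

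The other list held 14 genes of the DNA methylation machinery and its targets. In mtn1-1mtn2-5 against WT on mock medium edgeR called 0 of the 14, where 7.69% of all genes were called (median log2 fold change 0.01, and 0 over all genes). In mtn1-1mtn2-1 MET1, CMT3 and DDM1 were called lower and 0 higher (median -0.14), where 8.12% of all genes were called lower. MET1, which maintains methylation at CG sites, stood at 51.0 ± 1.92 CPM in WT, 37.7 ± 2.60 in mtn1-1mtn2-1 and 48.6 ± 2.62 in mtn1-1mtn2-5 on mock medium (SD, n = 3). Between the 2 mutants 5 of the 14 were called, all higher in mtn1-1mtn2-5 (MET1, CMT2, CMT3, DCL3 and SUVH4; median 0.23), where 27.7% of all genes were called and 13.1% were higher.

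In buds no library was used to choose the genes, and the levels are given by label. Of the 99, 65 reached 50 counts in each of the 24 libraries, and 4 were at 10 or fewer in every one. These 4 were the terpenoid genes AT3G32030 and AT3G32040, the cytochrome P450 gene AT3G32047 beside them, and AT3G46400. The 3 on chromosome 3 stood at 6.84, 3.24 and 0.863 CPM over the 6 WT seedling libraries. So most of the genes were expressed in every group of buds, and a few were near 0 in all of them. The range ran up to AT2G06950, a pseudogene, at 106 to 177 CPM in buds and 28.5 to 43.2 in WT seedlings. By contrast AT1G55990, annotated as a glycine-rich protein, was at 15.8 to 22.0 CPM in WT seedlings and at 0.264 or less in every bud library.

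Passing the filter on low counts, 91 of the 99 were tested in buds. The 8 left out were the 4 above with AT1G53950, AT1G53970, AT2G13910 and AT4G09420. Between the libraries labelled mtn1-1mtn2-1 and WT on mock medium 30 were called, 12 higher and 18 lower, or 33.0% where 20.7% of the 25730 genes tested were called (9.09% higher, 11.6% lower). On spermidine 21 were (11 higher, 10 lower), or 23.1% where 17.3% were (9.07% higher, 8.23% lower). The genes called lower included AT1G24792 (mock medium only), AT1G24879, AT1G25053, AT1G25141 and AT1G25209, near-identical copies that may share reads. Their calls are therefore not independent. Between labelled G3 and labelled WT the counts were 27 (7 higher, 20 lower; 29.7% where 29.5% of all genes were, 14.6% higher and 14.9% lower) on mock medium and 18 (8 higher, 10 lower; 19.8% where 26.4% were, 13.6% higher and 12.8% lower) on spermidine. Median log2 fold changes were -0.05, -0.04, -0.14 and -0.09, and -0.02, -0.01, -0.01 and -0.0048 over all genes. With only the 2 groups in the fit, the first count was 15. With the names WT and G3 of the bud columns exchanged, mtn1-1mtn2-1 against WT gave 30 calls on mock medium, 18 higher and 12 lower, where 32.9% of all genes were called. On spermidine it gave 28, 16 higher and 12 lower, where 26.9% were. On mock medium the balance of directions and the excess over all genes thus rest on the names.

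Single genes separated the labels clearly. AT2G15810, a pseudogene on chromosome 2, stood at 2.60, 2.22, 2.74 and 3.05 CPM in the mock buds labelled mtn1-1mtn2-1 and at 0.195 to 0.251 in those labelled WT (log2 fold change 3.57, SE 0.68, adjusted p 0.000765). The mock buds labelled G3 held 0.0241 to 0.222. In seedlings it was at 1.16, 1.68 and 1.33 CPM in WT and at 7.18, 7.21 and 10.9 in mtn1-1mtn2-1 on mock medium, without a call (adjusted p 0.0582). AT4G16870 was lower in the mock buds labelled mtn1-1mtn2-1, at 7.12, 16.9, 16.6 and 14.8 CPM, than in those labelled WT, at 31.1, 35.8, 39.9 and 30.3 (log2 fold change -1.30, SE 0.20, adjusted p 6.85e-05). Both genes thus moved in the same direction as in mtn1-1mtn2-1 seedlings, and their groups do not overlap.

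Between labelled G3 and labelled WT, 3 pseudogenes show changes in both directions. AT1G58889, of the near-identical pair with AT1G59265, was at 6.83, 8.11, 6.41 and 6.10 CPM in the mock buds labelled G3 and at 2.25, 2.65, 2.39 and 2.60 in those labelled WT (log2 fold change 1.47, SE 0.16, adjusted p 6.27e-07). AT3G29120, which has a near-identical copy (99.41%), went the other way, at 0.155, 0.296, 0.125 and 0.313 against 1.86, 1.49, 1.81 and 1.42 (log2 fold change -2.88, SE 0.33, adjusted p 7.19e-07). In the mock buds labelled mtn1-1mtn2-1 it was at 1.23 to 2.37. SADHU3-2 was lower in mock buds labelled G3, at 4.22, 3.83, 3.63 and 4.81 CPM, than in those labelled WT, at 5.05, 13.6, 9.77 and 16.4 (log2 fold change -1.44, adjusted p 0.000574). MTN1 and MTN2 were at the high level in the libraries labelled G3, and in the TPM table the bud columns named WT and G3 are exchanged; under those names each of these 3 directions reverses.

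**Figure D5:**
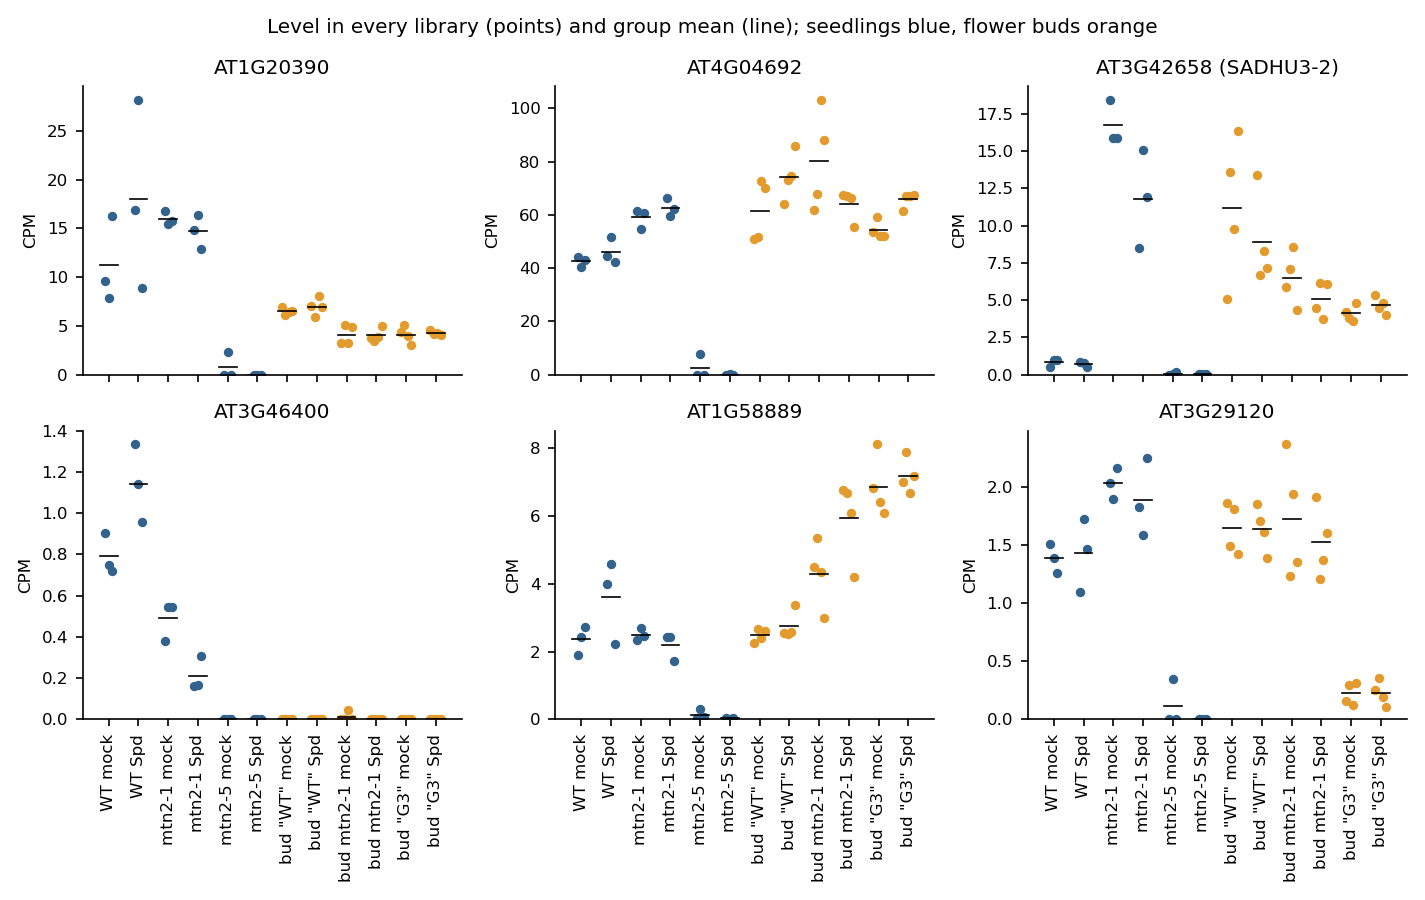
Level in CPM of 6 of the genes in every library (points) with the group mean (line), for seedlings (blue, 3 libraries a group) and flower buds (orange, 4 libraries a group, by label). All 6 are low in mtn1-1mtn2-5, where AT1G20390, AT4G04692 and AT3G29120 have a raised point in library 2 on mock medium. SADHU3-2 is high in mtn1-1mtn2-1 seedlings, AT3G46400 is near 0 in buds, and AT1G58889 and AT3G29120 separate the bud labels in opposite directions.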

How the data were processed

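RNA-seq of polyA RNA was taken from 18 seedling and 24 bud libraries. Reads were processed with Trim Galore, STAR and StringTie on TAIR10, per the submitters' processing notes. For each tissue the authors deposited a table of estimated counts per gene, written as whole numbers and not normalized, and a table of TPM, normalized by them for length and depth. How reads of copies or overlapping genes were counted, whether strand was used, and which of the 2 library providers made each library are not given in the sources used here; 0 columns lacked a sample. In buds, 16 of 24 count columns, those named WT and G3, were closest to the other name in the TPM table; in seedlings all 18 were closest to their own.

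The counts were fitted with edgeR 4.0.16 (R 4.3.3; filterByExpr, TMM, quasi-likelihood F test, 6 groups per tissue), with Benjamini-Hochberg adjustment over all genes tested and a threshold of 0.05. CPM are TMM-scaled. The code was tested on simulated data. Alternatives were DESeq2 1.42.0, other filters and scaling, a fit of 2 groups, a replicate block and leaving out replicates. Copies were sought with BLAST+ 2.17.0 at 95% identity over 50% of the gene; positions and sequences are RefSeq's TAIR10.1. The deposited files hold no coordinates.

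The members and lists were chosen with earlier results of these data known. Genes given by value were the 3 highest per chromosome in WT, the 2 largest called rises and falls in each comparison, those with a known role, direct neighbours, those nearest the rule's limits, and exceptions; the pair with identical windows, AT2G15292's bound, overlap partners and AT4G16870 in seedlings were added after values were seen.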

Additional observations from a re-analysis of the deposited data

Results flagged for a closer look

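Among 17 genes in 102 groups of 4 bud libraries, 7 single libraries stood apart from the other 3 of their group, and chance gives about 1 in 20 groups. AT1G65985 was at 1.105 CPM in replicate 3 of the mock buds labelled WT, against 1.405 to 1.435 in the others. In replicate 2 of the spermidine buds labelled G3 it was at 1.725, against 0.9414 to 0.9591. AT3G44430 was at 42.45 CPM in replicate 1 of the mock buds labelled mtn1-1mtn2-1, against 32.09 to 33.19. AT4G04692 was at 55.31 in replicate 4 of the spermidine buds labelled mtn1-1mtn2-1, against 66.29 to 67.32, and at 61.26 in replicate 1 of the spermidine buds labelled G3, against 67.14 to 67.51. AT4G16870 was at 61.87 in replicate 4 of the spermidine buds labelled G3, against 55.36 to 56.17. MTN1 was at 84.31 in replicate 4 of the mock buds labelled G3, against 89.7 to 90.64.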

How the results depend on the processing

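The rule gave 51 genes when 0 counts were asked of each mtn1-1mtn2-5 spermidine library, and 99 to 105 when any library of the rule was left out. The level in library 2 was a median of 16.6% of WT by column total, 15.9% in TPM and 16.6% of the sum, against 16.5%. Between the mock mutants, the 96 genes called lower became 59 with only the 2 groups in the fit and 59 with DESeq2, and 92 to 99 without 1 replicate. Against WT on mock medium the 92 called lower in mtn1-1mtn2-5 became 23 with the 2 groups, 53 with DESeq2 and 74 to 99 without 1 replicate. For mtn1-1mtn2-1 against WT, the 4 called on mock medium became 20 with the 2 groups, 15 without library 2 of mtn1-1mtn2-5 (chosen after seeing the data) and 2 to 3 without 1 replicate, with 2 when WT replicate 2 was left out. The 4 on spermidine became 13, 17 and 3 to 4. Between media in mtn1-1mtn2-1 DESeq2 called 1, and edgeR 0 without any 1 replicate. In mock buds labelled mtn1-1mtn2-1 the 30 became 15 with the 2 groups. Without 1 replicate the 4 bud counts were 20 to 25, 15 to 21, 19 to 24 and 15 to 20. The cause of these shifts was not tested. DESeq2 gave no adjusted p for 33 of the genes in seedlings and 6 or 7 in buds.

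With the bud names WT and G3 exchanged (also chosen after seeing the data), 9 log2 fold changes reversed. On mock medium G3 against WT became -1.49 for AT1G59265, -1.47 for AT1G58889, 2.88 for AT3G29120 and 1.44 for AT3G42658. On spermidine it became -1.38 for AT1G58889, 2.85 for AT3G29120, 0.95 for AT2G15128 and -3.63 for AT4G03480, whose levels are near the floor. For mtn1-1mtn2-1 against WT on spermidine AT2G15128 became 0.082. The others of mtn1-1mtn2-1 against WT kept their direction, with AT2G15810 from 3.57 to 4.96 on mock medium, AT4G04293 from 2.05 to 0.58 without a call, and on spermidine AT4G16870 from -1.15 to -1.91 and AT1G25430 from 2.81 to 1.66 without a call. Of 347 alternatives for 25 single-gene results, 328 kept direction and call, 10 lost the call (AT4G04293 5, AT4G03480 3, AT1G25209 1, AT1G25430 1) and these 9 reversed.

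Same-numbered replicates share only a number: correlations of their deviations ran from -0.1389 to 0.1444, and in no comparison were all above 0.1. With the replicate block, 95 genes were called between the mock mutants, 93 in mtn1-1mtn2-5 against WT, 4, 4 and 0 in the comparisons of mtn1-1mtn2-1 seedlings, and 31, 22, 24 and 20 in buds. With 3 fragments as the floor, levels under 0.0610 to 0.0724 CPM in seedlings and 0.128 to 0.161 in buds cannot be told from 0.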
